A study of Mus musculus with 8 samples.

Results

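The genes described here are the 10 that carry most of the calcium cycle of the cardiomyocyte, Ryr2, Atp2a2, Pln, Sln, Casq2, Slc8a1, Cacna1c, Jph2, Trdn and Hrc. They were chosen by name and role out of 50599 gene records in the expression files, and all 10 were found under 1 Ensembl identifier each. All 10 were also among the 19959 records for which the fit over the whole table gave an adjusted p.

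In each heartbeat the L-type channel of the surface membrane admits a small amount of calcium, which opens the ryanodine receptor of the sarcoplasmic reticulum and releases a much larger store. The store is held inside the reticulum by calsequestrin and is kept beside the release channel by triadin, while junctophilin holds the surface and reticulum membranes together. Relaxation follows when the SERCA pump returns calcium to the store, under the restraint of phospholamban and sarcolipin, and when the sodium-calcium exchanger moves calcium out of the cell.

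RNA came from whole hearts of 12-week-old male C57BL/6N mice. The wildtype group was 4 mice whose Lrpprc alleles carried loxP sites (Lrpprc loxP/loxP) without Cre, and the knockout group was 4 mice of the same alleles with Cre (Lrpprc loxP/loxP,Cre+), which removed the gene in heart and skeletal muscle. The other cells of the heart were sequenced together with the cardiomyocytes in both groups. Lrpprc encodes a mitochondrial protein that binds and stabilises mitochondrial mRNAs, and the comparison addressed how transcripts for calcium cycling differed between hearts with and without it.

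The total expected count ranged from 35218541 to 47743376 over the 8 libraries. Lrpprc had 3424 to 3946 normalised counts (counts divided by the size factor and corrected for transcript length) in the wildtype and 504.3 to 605.4 in the knockout, a 6.35-fold lower level (DESeq2, adjusted p = 3.77e-153). The 8 cardiomyocyte markers summed to 2316636 to 2527919 normalised counts in the wildtype and 1445082 to 1829242 in the knockout, and 6 of them fell and 1 rose. Of the 8 skeletal muscle markers, 7 had at most 30 counts in any library (a limit set after the values were seen), and the highest count of any of them was 44, so skeletal muscle transcripts were close to 0. Knockout replicate 3 had the lowest sum of the 4 knockout libraries for fibroblast, macrophage, smooth muscle, endothelial and atrial markers. For fibroblast markers it had 16246, beside 17177 to 17913 in the wildtype and 28141 to 53538 in the other 3 knockout libraries, and for macrophage markers 1815, beside 1802 to 2256 and 2622 to 4597. Its sums were thus near the wildtype for these 2 lists. For smooth muscle markers it had 2547, beside 7663 to 9523 in the wildtype and 3889 to 5232 in the other knockout libraries, and for endothelial markers 8297, beside 11755 to 12673 and 10326 to 14752. For atrial markers it had 35558, beside 21534 to 23775 and 45334 to 54464.

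Of the 10 calcium handling genes, 9 were lower and 1 was higher in the knockout at an adjusted p under 0.05, and 7 were lower and 1 higher when libraries were scaled to totals without mitochondrial rRNA. In the median-of-ratios fit, 15.5% of all tested records were lower and 18.2% were higher, 33.7% in all. The median log2 fold change was -1.28 for the 10 genes and 0.005 over all tested records. Of the 4777 records whose mean normalised count was 500 or more, a limit set after the values were seen, 22.8% were lower. Ryr2, Atp2a2, Pln, Sln, Trdn and Hrc were lower by at least 2-fold, as were 5.49% of all tested records. Of these, Trdn (log2 -0.74) and Ryr2 (-0.98) were below 2-fold when mitochondrial rRNA was left out of the totals, and Trdn (-0.62) also without the correction for transcript length. The groups did not overlap in 9 of the 10 genes, Casq2 being the exception, and in 33.0% of all tested records. In 8 of the 9 the knockout was the lower group, as in 16.4% of all tested records. In bulk RNA, fewer cardiomyocytes and less RNA per cardiomyocyte cannot be told apart.

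**Figure D1:**
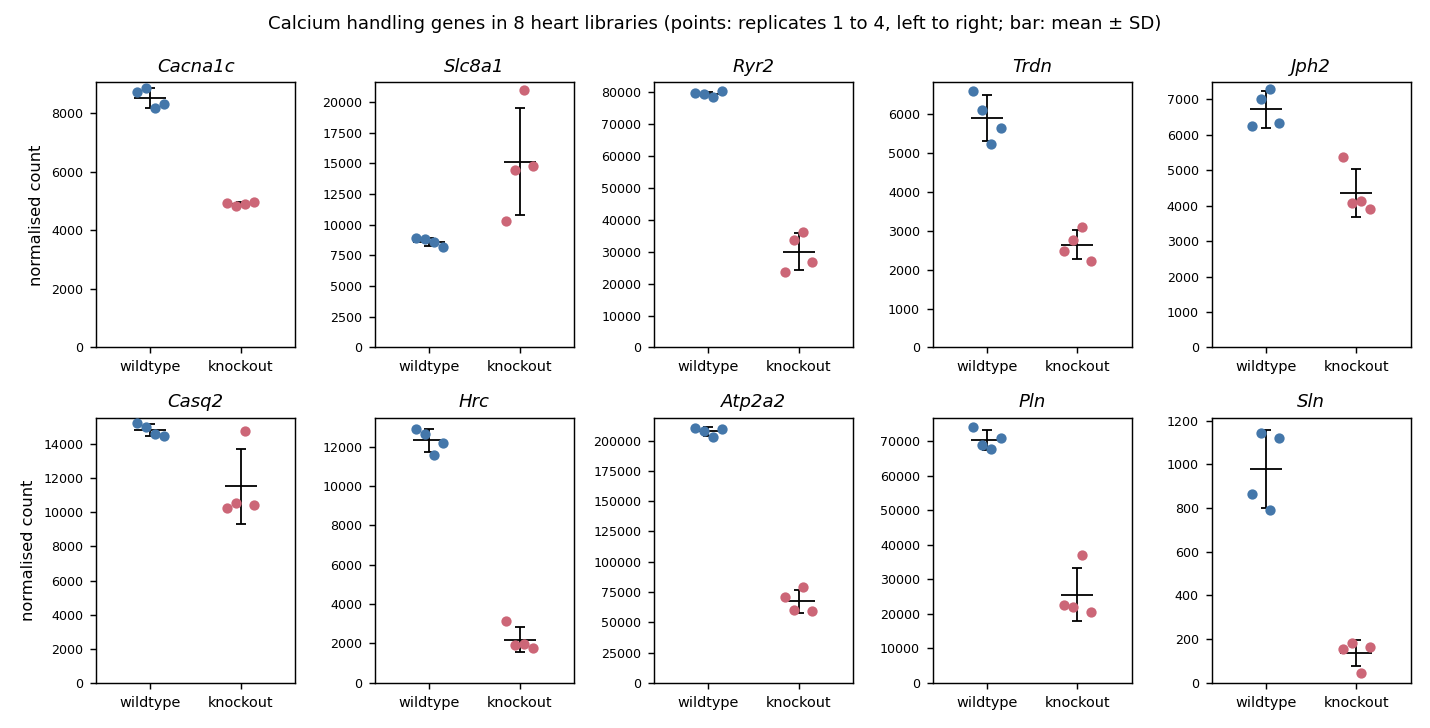
Normalised count of each of the 10 genes in the 4 wildtype and 4 knockout libraries. Points are libraries in the order of their replicate numbers, horizontal bars are group means and error bars are SD. Slc8a1 is the gene with higher points in the knockout, and in Casq2 knockout replicate 3 lies within the wildtype range of 14473 to 15257.

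The entry of calcium across the surface membrane depends on Cacna1c, which encodes the pore of the L-type channel (ENSMUSG00000051331.15, GRCm38 chromosome 6 from 118587240 to 119196418, minus strand). Normalised counts, here and below in the order of replicates 1 to 4, were 8746, 8860, 8186 and 8304 in the wildtype and 4933, 4847, 4915 and 4957 in the knockout. The knockout libraries were all lower and were close to each other (4913 ± 47.3, SD, n = 4). The level was 1.74-fold lower, with a log2 fold change of -0.79 (SE 0.0643, DESeq2, adjusted p = 4.98e-33).

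Slc8a1 encodes the sodium-calcium exchanger, the main route by which calcium leaves the cardiomyocyte (ENSMUSG00000054640.14, chromosome 17 from 81373105 to 81738377, minus strand). The wildtype and knockout did not overlap, with normalised counts of 8912, 8808, 8550 and 8176 in the wildtype and 10338, 14479, 20954 and 14742 in the knockout. All knockout libraries were higher, with replicate 3 highest and replicate 1 nearest to the wildtype. The level was 1.76-fold higher, with a log2 fold change of 0.81 (SE 0.186, DESeq2, adjusted p = 8.76e-05), and leaving out knockout replicate 3 gave 0.61. It was the gene of the 10 that rose.

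Ryr2 encodes the ryanodine receptor through which the store is released (ENSMUSG00000021313.15, chromosome 13 from 11553102 to 12106945, minus strand). Its normalised count was 79698, 79302, 78524 and 80232 in the wildtype and 23717, 33626, 36195 and 26689 in the knockout. The wildtype libraries were nearly equal (79439 ± 719, SD, n = 4) and the knockout libraries were all lower and more spread (30057 ± 5830, SD, n = 4). The level was 2.64-fold lower, with a log2 fold change of -1.40 (SE 0.140, DESeq2, adjusted p = 1.02e-21).

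Trdn encodes triadin, which anchors calsequestrin to the ryanodine receptor (ENSMUSG00000019787.9, chromosome 10 from 33080554 to 33476709, plus strand). Triadin had 6594, 6099, 5216 and 5647 normalised counts in the wildtype and 2483, 2750, 3095 and 2224 in the knockout, with no overlap. The log2 fold change was -1.16 (SE 0.131, DESeq2, adjusted p = 2.86e-17), a 2.23-fold lower level, and -0.62 without the length correction (adjusted p = 4.56e-05). The gene shares its region with the opposite-strand D830005E20Rik, and the counting was stranded.

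Jph2 encodes junctophilin 2, which spans the cleft between transverse tubule and reticulum (ENSMUSG00000017817.11, chromosome 2 from 163336242 to 163397993, minus strand). For Jph2 the normalised counts were 6231, 7012, 7295 and 6331 in the wildtype and 5372, 4074, 4121 and 3891 in the knockout. Knockout replicate 1 was the highest of its group, still below the wildtype. The level was 1.54-fold lower, with a log2 fold change of -0.62 (SE 0.127, DESeq2, adjusted p = 9.62e-06), and it was not called when libraries were scaled to totals without mitochondrial rRNA (log2 -0.20, adjusted p = 0.212). Relative to the median record Jph2 was -0.64 in both fits.

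Inside the store, Casq2 encodes cardiac calsequestrin, the buffer that holds the calcium to be released (ENSMUSG00000027861.13, chromosome 3 from 102086415 to 102146514, plus strand). Casq2 had 15257, 15019, 14612 and 14473 normalised counts in the wildtype and 10266, 10568, 14782 and 10460 in the knockout. Knockout replicates 1, 2 and 4 were lower than every wildtype library, and replicate 3 was within the wildtype range. The log2 fold change was -0.37 (SE 0.133, DESeq2, adjusted p = 0.0213), the smallest of the 10. The call was lost in 6 of the 8 fits that left out 1 library (adjusted p 0.0507 to 0.0835), and kept without knockout replicate 3 (log2 -0.51) and without wildtype replicate 3. Scaling to totals without mitochondrial rRNA gave 0.05 (adjusted p = 0.749). That scaling moved the median record by 0.43 in log2, and relative to the median record Casq2 was -0.38 in the median-of-ratios fit and -0.39 in that one.

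Hrc encodes the histidine-rich calcium binding protein of the reticulum lumen, which also contacts triadin and the pump (ENSMUSG00000038239.11, chromosome 7 from 45335290 to 45338974, plus strand). Normalised counts of Hrc were 12889, 12623, 11549 and 12199 in the wildtype and 3143, 1906, 1972 and 1746 in the knockout. Even the highest knockout library, replicate 1, was far below the lowest wildtype library. The level was 5.62-fold lower, with a log2 fold change of -2.49 (SE 0.179, DESeq2, adjusted p = 1.11e-41). The group means were 12315 ± 584 and 2192 ± 641 (SD, n = 4).

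The return of calcium to the store rests on Atp2a2, which encodes SERCA2, the pump of the cardiac reticulum (ENSMUSG00000029467.15, chromosome 5 from 122453513 to 122502225, minus strand). Normalised counts of 210675, 208111, 202634 and 209309 in the wildtype stood against 70920, 59853, 78854 and 59095 in the knockout. The groups were far apart, at 207682 ± 3525 and 67180 ± 9475 (SD, n = 4). The level was 3.09-fold lower, with a log2 fold change of -1.63 (SE 0.113, DESeq2, adjusted p = 8.96e-45). The records Gm43359 and Gm43360 lie on the same strand within the gene, and the expected counts of Atp2a2 were whole numbers in all libraries.

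Pln encodes phospholamban, which restrains SERCA2 until it is phosphorylated (ENSMUSG00000038583.13, chromosome 10 from 53337667 to 53345987, plus strand). Its normalised count was 73972, 68778, 67675 and 70974 in the wildtype and 22642, 21982, 37044 and 20590 in the knockout. Knockout replicate 3 was the highest of its group and below the wildtype. The level was 2.75-fold lower, with a log2 fold change of -1.46 (SE 0.182, DESeq2, adjusted p = 2.55e-14), and -1.70 without that library.

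Sln encodes sarcolipin, a second small inhibitor of the pump that in the mouse heart is mainly atrial (ENSMUSG00000042045.6, chromosome 9 from 53850164 to 53854560, plus strand). Its normalised count was 862, 1142, 792 and 1121 in the wildtype and 154, 181, 46 and 165 in the knockout. Knockout replicate 3 was the lowest, and every knockout library was below every wildtype library. The level was 7.15-fold lower, the largest fold of the 10, with a log2 fold change of -2.84 (SE 0.317, DESeq2, adjusted p = 1.51e-17). Without knockout replicate 3 it was -2.55.

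The atrial markers moved in different directions beside Sln. Myl7, an atrial myosin light chain, had 3287 to 4555 normalised counts in the wildtype and 639.1, 337.1, 70.13 and 319.4 in the knockout (log2 -3.54, DESeq2, adjusted p = 1.74e-08). Nppa, the atrial natriuretic peptide, rose from 12339 to 12871 in the wildtype to 34335 to 48629 in the knockout (log2 1.73, adjusted p = 1.39e-48), while Myl4 and Bmp10 were not called. Knockout replicate 3 was the lowest library for Sln (46), Myl7 (70.13) and Myl4 (463.3). The part of atrial tissue in the Sln result was not tested.

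Of the genes with a window in the RefSeq table (GRCm38.p6), Hrc and Pln, which had the largest falls, and Slc8a1, which rose, are shown as examples chosen after the values were seen, as the 250 bases before the annotated start, 5′ to 3′ on the strand of the gene. The start in that table need not be the one used in the heart. Capitals mark matches on either strand to the MEF2 motif, the CArG box, GATAA, the E-box CANNTG and TATAAA. The windows are chr7:45335019-45335268 (plus strand), chr10:53337436-53337685 (plus strand) and chr17:81738388-81738637 (minus strand).
Hrc: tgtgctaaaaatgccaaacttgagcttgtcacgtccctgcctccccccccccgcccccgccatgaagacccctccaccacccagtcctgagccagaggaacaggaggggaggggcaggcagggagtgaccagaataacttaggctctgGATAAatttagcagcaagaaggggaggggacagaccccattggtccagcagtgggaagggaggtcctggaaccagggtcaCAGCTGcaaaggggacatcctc
Pln: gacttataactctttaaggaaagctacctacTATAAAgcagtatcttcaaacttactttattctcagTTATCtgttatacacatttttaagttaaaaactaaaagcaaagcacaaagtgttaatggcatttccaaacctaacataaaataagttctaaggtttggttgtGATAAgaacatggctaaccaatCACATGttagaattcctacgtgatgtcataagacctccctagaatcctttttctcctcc
Slc8a1: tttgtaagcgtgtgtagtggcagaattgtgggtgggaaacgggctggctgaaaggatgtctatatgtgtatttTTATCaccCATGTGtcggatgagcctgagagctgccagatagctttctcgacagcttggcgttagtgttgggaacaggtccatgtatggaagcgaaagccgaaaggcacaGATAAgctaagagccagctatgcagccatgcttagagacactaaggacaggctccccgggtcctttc

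Counted from the start, GATAA matches began at position -102 in Hrc, -183 and -81 in Pln and -177 and -67 in Slc8a1. The table held 10 windows for 7 of the genes, with 3 for Cacna1c, 2 for Jph2 and 1 for each of the others, and those of 1 gene can share sequence. A match to GATAA was in 3 of the 10 windows and in 22.6% of all 32851 windows. The E-box was in 10 of the 10, against 66.2% of all windows. TATAAA was in 1, that of Pln, against 12.4%, the MEF2 motif was in 1, that of Casq2, against 2.9%, and the CArG box was in 0, against 1.5%. The window of Ryr2, not printed, held 2 E-box matches and 0 matches to the other motifs. GATAA and the E-box were thus present in windows of genes that fell and of the gene that rose. Windows of Atp2a2, Sln and Trdn were not used here.

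Genes of the contractile apparatus moved beside the 10 genes. The mean log2 level of the 8 cardiomyocyte markers was 17.06 in the wildtype and 16.50 in the knockout, a difference of -0.57. Myh6, the main myosin heavy chain of the adult mouse heart, had a log2 fold change of -0.87 and Tnni3, cardiac troponin I, of -1.05 (DESeq2, adjusted p = 7.12e-11 and 4.67e-18). Mybpc3, the cardiac myosin-binding protein C, rose (0.60, adjusted p = 2.06e-08), and Tnnt2, cardiac troponin T, was not called (-0.15, adjusted p = 0.509).

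Each gene was therefore also set against the mean of these markers in the same library, an alternative added after the fits were seen. On this scale the knockout minus wildtype difference in log2 was -2.43 for Sln, -1.96 for Hrc, -1.07 for Atp2a2, -0.94 for Pln, -0.86 for Ryr2 and -0.60 for Trdn, and 1.33 for Slc8a1. None of these 7 genes overlapped between the groups (exact permutation test, two-sided p = 0.0286, the smallest that 4 against 4 allows, adjusted p = 0.0408 over the 10 genes). Cacna1c (-0.23, exact permutation test, adjusted p = 0.0714), Jph2 (-0.07, adjusted p = 0.486) and Casq2 (0.18, adjusted p = 0.349) did not pass. These 3 had the smallest falls in the fit over all genes as well.

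**Figure D2:**
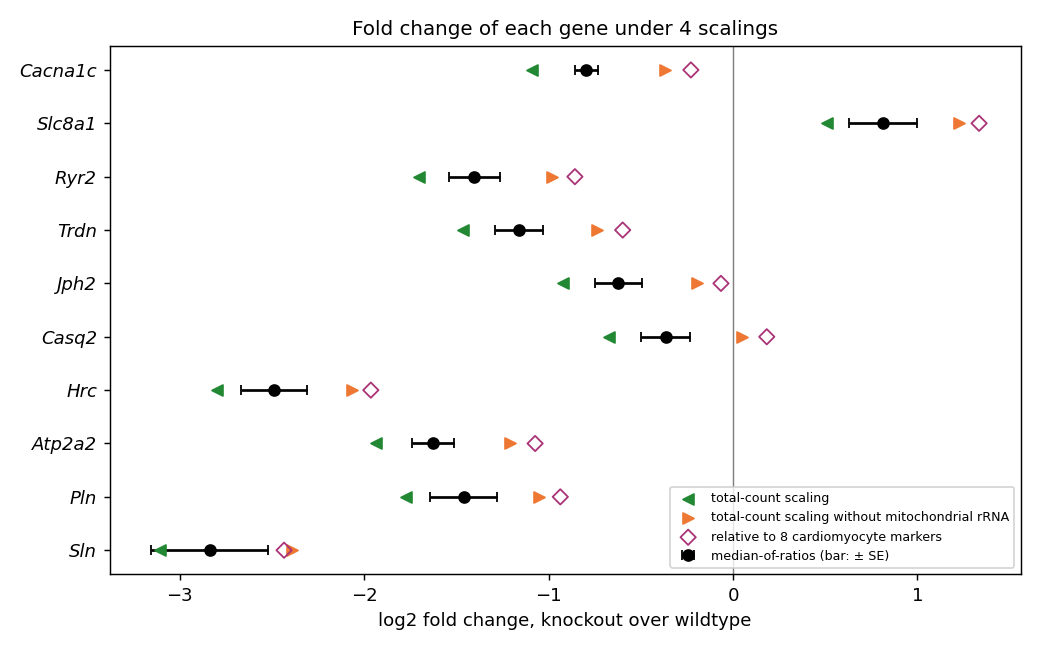
Log2 fold change, knockout over wildtype, of each of the 10 genes under 4 scalings. Circles are the median-of-ratios values with bars of ± SE, triangles the 2 total-count scalings, and open diamonds the level relative to the cardiomyocyte markers. Casq2 is the gene whose symbols lie on both sides of 0, from -0.67 to 0.18.

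Levels of different genes can be compared per transcript length, as TPM within a group. In the wildtype the order was Atp2a2 (1497 ± 37.7 TPM, SD, n = 4), Pln (1334 ± 62.5), Casq2 (176 ± 7.30), Hrc (152 ± 8.76), Ryr2 (132 ± 2.16), Trdn (95.6 ± 10.8), Slc8a1 (86.6 ± 4.86), Cacna1c (49.8 ± 2.59), Jph2 (45.9 ± 3.81) and Sln (23.4 ± 4.07). Neighbours whose ranges overlapped were Trdn with Slc8a1 and Cacna1c with Jph2. The pump and phospholamban thus formed a pair far above the rest, since Pln was 7.60 times Casq2, the next gene.

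In the knockout the order was Atp2a2 (438 ± 31.9 TPM, SD, n = 4), Pln (437 ± 104), Slc8a1 (138.0 ± 35.8), Casq2 (124 ± 17.3), Ryr2 (45.3 ± 8.18), Trdn (38.8 ± 3.88), Jph2 (27.1 ± 3.57), Cacna1c (26.2 ± 1.91), Hrc (24.5 ± 6.36) and Sln (3.05 ± 1.46). Hrc moved from the 4th place to the 9th and Slc8a1 from the 7th to the 3rd. Ranges overlapped between Atp2a2 and Pln, Slc8a1 and Casq2, Ryr2 and Trdn, Jph2 and Cacna1c, and Cacna1c and Hrc. TPM sums to a constant in each library, and so depends on the share taken by mitochondrial rRNA and by other abundant RNA. For this reason the order and not the TPM difference between groups is given.

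**Figure D3:**
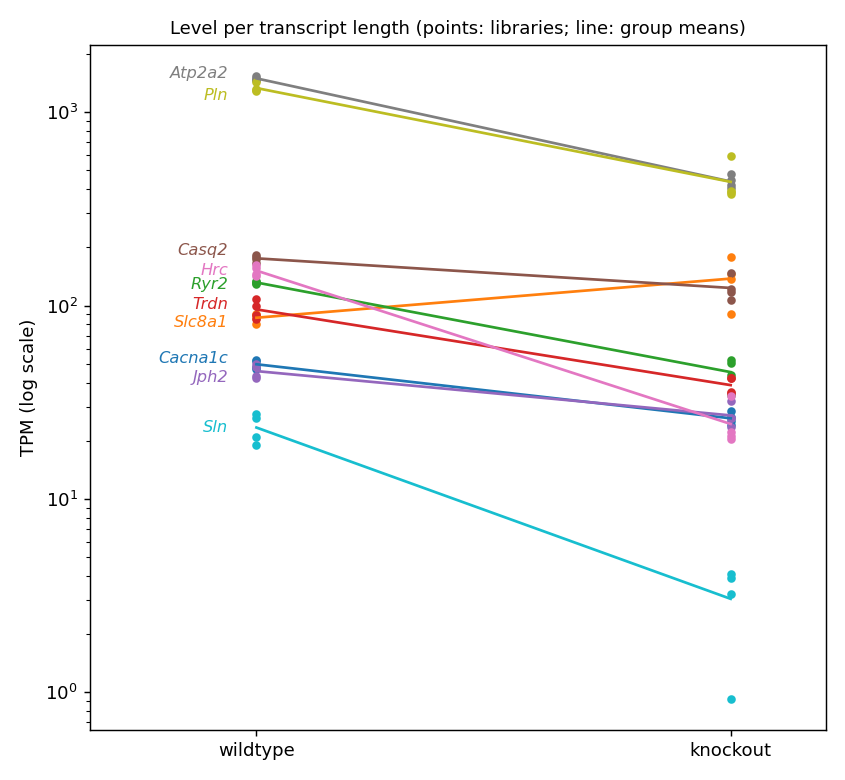
TPM of the 10 genes on a log scale in the wildtype and knockout. Points are libraries and lines join the group means. Atp2a2 and Pln are the top pair in both groups, while Hrc is 4th in the wildtype and 9th in the knockout and Slc8a1 is 7th and 3rd. The slope of a line also depends on the share of mitochondrial rRNA and of other abundant RNA.

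Ratios of 2 genes within a library do not depend on its scaling, and 7 were tested. The inhibitor to pump ratio, Pln to Atp2a2, was 0.924, 0.869, 0.879 and 0.892 in the wildtype and 0.840, 0.966, 1.24 and 0.917 in the knockout. The groups overlapped and the log2 difference was 0.14 (exact permutation test, two-sided p = 0.371, adjusted p = 0.371), with 0.02 when knockout replicate 3 and 0.21 when knockout replicate 1 was left out. So a difference in this ratio was not detected, although both genes fell by over 2-fold, and on expected counts in place of TPM the log2 difference was -0.06. Sln to Pln was 0.0147, 0.0210, 0.0148 and 0.0200 in the wildtype and 0.00862, 0.0104, 0.00157 and 0.0102 in the knockout, 2.82-fold lower (log2 -1.50, exact permutation test, two-sided p = 0.0286, adjusted p = 0.04). Without knockout replicate 3 the log2 difference was -0.84.

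The balance of the 2 ways of removing calcium from the cytosol, Slc8a1 to Atp2a2, had the largest difference of the 7. It was 0.0590, 0.0590, 0.0588 and 0.0545 in the wildtype and 0.203, 0.337, 0.371 and 0.348 in the knockout. The ratio was 5.31-fold higher (log2 2.41, exact permutation test, two-sided p = 0.0286, adjusted p = 0.04), with no overlap.

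Around the release channel, 3 of 4 partners were higher relative to Ryr2. Casq2 to Ryr2 was 1.29 to 1.37 in the wildtype and 2.24 to 3.09 in the knockout, 2.06-fold higher (log2 1.04). Jph2 to Ryr2 was 0.322 to 0.383 in the wildtype and 0.469 to 0.932 in the knockout, 1.73-fold higher (log2 0.79). Cacna1c to Ryr2, the trigger to the release channel, was 0.364 to 0.393 in the wildtype and 0.478 to 0.732 in the knockout, 1.55-fold higher (log2 0.63). These 3 ratios did not overlap between the groups (exact permutation test, two-sided p = 0.0286, adjusted p = 0.04). Trdn to Ryr2 was 0.650 to 0.809 in the wildtype and 0.800 to 1.02 in the knockout, which overlapped (log2 0.26, exact permutation test, two-sided p = 0.0571, adjusted p = 0.0667), and on expected counts the log2 difference was 0.79 (adjusted p = 0.0333).

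TPM divides by transcript length and expected counts do not, and the length of Trdn was among the measures compared. RSEM gives each gene a length weighted by the abundance of its isoforms, which was 1544, 1583, 1618 and 1579 bases for Trdn in the wildtype and 2111, 2139, 2356 and 2249 bases in the knockout. The knockout mean was 633 bases above the wildtype mean, with no overlap (exact permutation test, two-sided p = 0.0286). Adjusted over the 10 genes the p was 0.0952, so the difference did not pass. Trdn has 8 annotated transcripts, of which 2 are longer than 4000 bases and 6 are at most 1665 bases. The knockout minus wildtype difference was -183 bases for Pln and 20.7 bases for Atp2a2, also with no overlap and with the same p and adjusted p. Cacna1c, with 27 transcripts, overlapped (4643 ± 222 and 5183 ± 413 bases, SD, n = 4, exact permutation test, two-sided p = 0.0857). The other 6 differed by at most 47.8 bases with overlap.

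**Figure D4:**
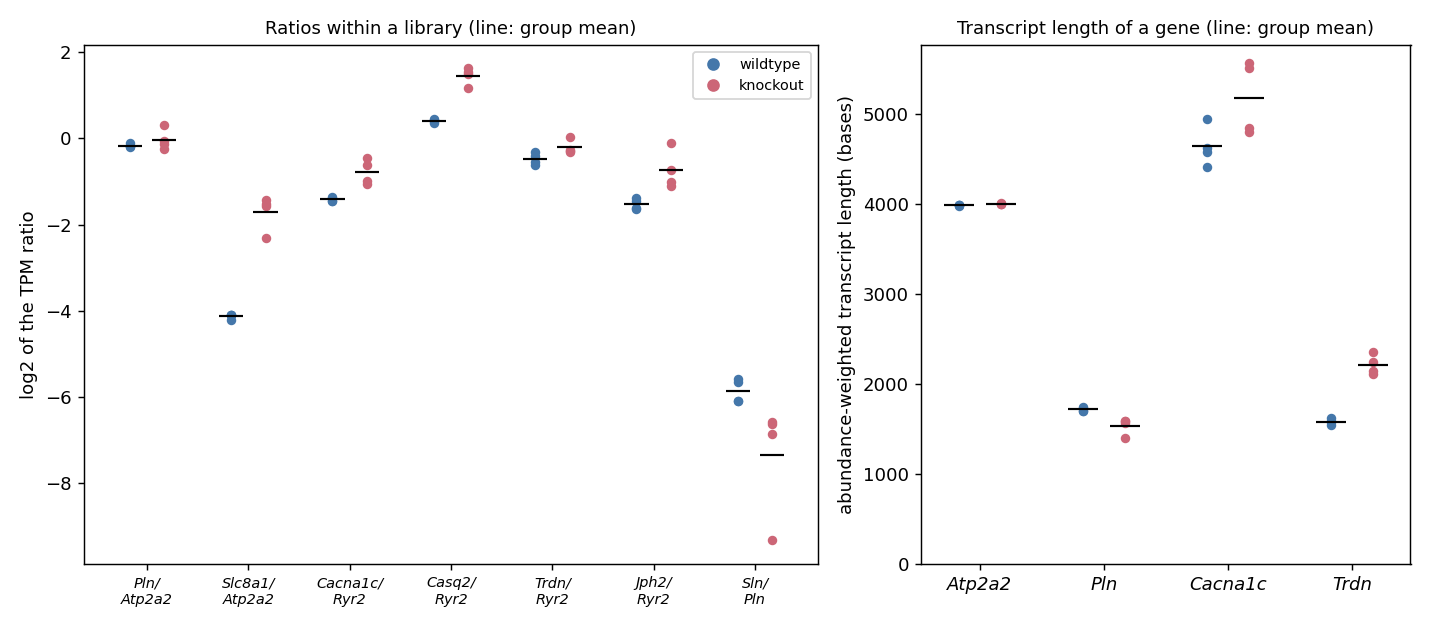
Left, log2 of the TPM ratio of 7 gene pairs in each library, with lines at the group means. Right, abundance-weighted transcript length in bases of 4 genes. Slc8a1 to Atp2a2 has the widest gap between the groups, and Trdn has group means of 1581 and 2214 bases.

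The other genes of the pathway were read from 6 lists by role, 80 genes in all, of which 78 had an adjusted p. Of these, 20 were higher, 24 were lower and 34 were not called, with a median log2 fold change of -0.14. The shares of 20 and 24 of 78 stand beside 18.2% and 15.5% of all tested records. Under total-count scaling 37 were lower, and with mitochondrial rRNA left out of the totals 35 were higher and 14 lower, so the balance of directions depends on the scaling.

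Among 17 partners of the release unit, 6 were higher and 3 lower. Casq1, the calsequestrin of skeletal muscle, fell from 226 to 319 normalised counts in the wildtype to 13.7 to 44.0 in the knockout (log2 -3.14, SE 0.285, DESeq2, adjusted p = 3.14e-26). Asph, whose locus also encodes the triadin relative junctin, had 4614 to 4981 and 2383 to 3233 (log2 -0.87, adjusted p = 4.86e-12). Sri, sorcin, which damps the release channel, had 361 to 473 and 911 to 1959 (log2 1.49, adjusted p = 6.69e-09). Ryr3, a minor release channel in heart, had 72.0 to 117 and 114 to 398 (log2 1.76, adjusted p = 1.94e-06). Ryr1, the skeletal release channel, had 1.82 to 10.2 and 2.62 to 9.01, and Fkbp1b, the calstabin of the cardiac channel, had 4.63 to 11.3 and 4.98 to 19.6, neither called.

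Among 7 isoforms and small regulators of the pump, 6 had an adjusted p, 3 were higher and 2 lower. Strit1, whose small protein DWORF displaces phospholamban from SERCA, had 146, 140, 119 and 133 normalised counts in the wildtype and 5.70, 0.00, 2.27 and 0.938 in the knockout. This was 61.7-fold lower (log2 -5.95, SE 0.550, DESeq2, adjusted p = 2.32e-25), the largest fall of the 78, and without knockout replicate 1 the log2 fold change was -6.97, at knockout counts near 0. Hax1, which binds phospholamban, had 249 to 270 and 652 to 898 (log2 1.54, adjusted p = 1.3e-29). Atp2a1, the skeletal pump, was low and fell from 9.24 to 39.1 to 1.97 to 5.11 (log2 -2.31, adjusted p = 0.00303). Mrln, the skeletal micropeptide myoregulin, had at most 8.22 in the wildtype and was not called, and Erln had no adjusted p.

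Of 16 subunits and brakes of the surface channels, 15 had an adjusted p, with 2 higher and 7 lower. Cacnb1, a beta subunit known from skeletal muscle, had 70.2, 93.7, 131 and 155 normalised counts in the wildtype and 538, 856, 1042 and 1032 in the knockout, 7.70-fold higher (log2 2.94, SE 0.268, DESeq2, adjusted p = 3.82e-26). Cacnb2, the main beta subunit in heart, which lies outside the naming rule and was chosen after its values were seen, had 1752 to 2077 and 564 to 722 (log2 -1.53, adjusted p = 3.39e-39). Cacna2d2, an auxiliary subunit, fell with a log2 fold change of -2.27 (adjusted p = 8.42e-10) and Cacna1g, a T-type pore, with -1.85 (adjusted p = 2.86e-07).

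Of 14 genes of extrusion and store-operated entry, 2 were higher and 3 lower. Trpc6, a cation channel, had 6.16 to 14.1 and 18.1 to 43.9 normalised counts (log2 1.75, DESeq2, adjusted p = 0.000728) and the pump Atp2b2 had 20.7 to 27.0 and 0.00 to 12.3 (log2 -1.87, adjusted p = 0.00697). The call on Atp2b2 was lost without wildtype replicate 2 (adjusted p = 0.0554) and with totals that left out mitochondrial rRNA (log2 -1.41, adjusted p = 0.0544). The other exchangers, Slc8a2 and Slc8a3, had at most 30.4 normalised counts in any library and were not called.

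Of 15 calcium-dependent kinases and phosphatases, 4 were higher and 6 lower. Camk2b and Camk2a, isoforms of the kinase that phosphorylates the release channel and phospholamban, had log2 fold changes of -2.34 and -2.06 (DESeq2, adjusted p = 4.56e-29 and 2.28e-15), from 184 to 222 and 538 to 640 normalised counts in the wildtype to 30.2 to 50.0 and 82.5 to 222 in the knockout. Camk2d, the main cardiac isoform, had 2716 to 3595 and 2493 to 3071 and was not called (log2 -0.19, adjusted p = 0.253). It lies outside the naming rule and was chosen after its values were seen. Ppp1r1a, an inhibitor of the phosphatase that acts on phospholamban, had 15.3 to 26.5 and 3.47 to 6.91 (log2 -2.10, adjusted p = 0.000419).

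Of 11 genes of the dyad and transverse tubules, 3 were higher and 3 lower. Jph4, a junctophilin known from neurons, had 0.00 to 2.87 and 7.80 to 19.8 normalised counts (log2 3.23, DESeq2, adjusted p = 0.00118), and without wildtype replicate 3 the log2 fold change was 4.18. Lrrc10, a cardiac protein of the dyad region, had 1074 to 1359 and 1734 to 3635 (log2 1.16, adjusted p = 1.11e-07), and Mtm1, a phosphoinositide phosphatase, had 353 to 439 and 606 to 1042 (log2 0.91, adjusted p = 1.58e-05).

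**Figure D5:**
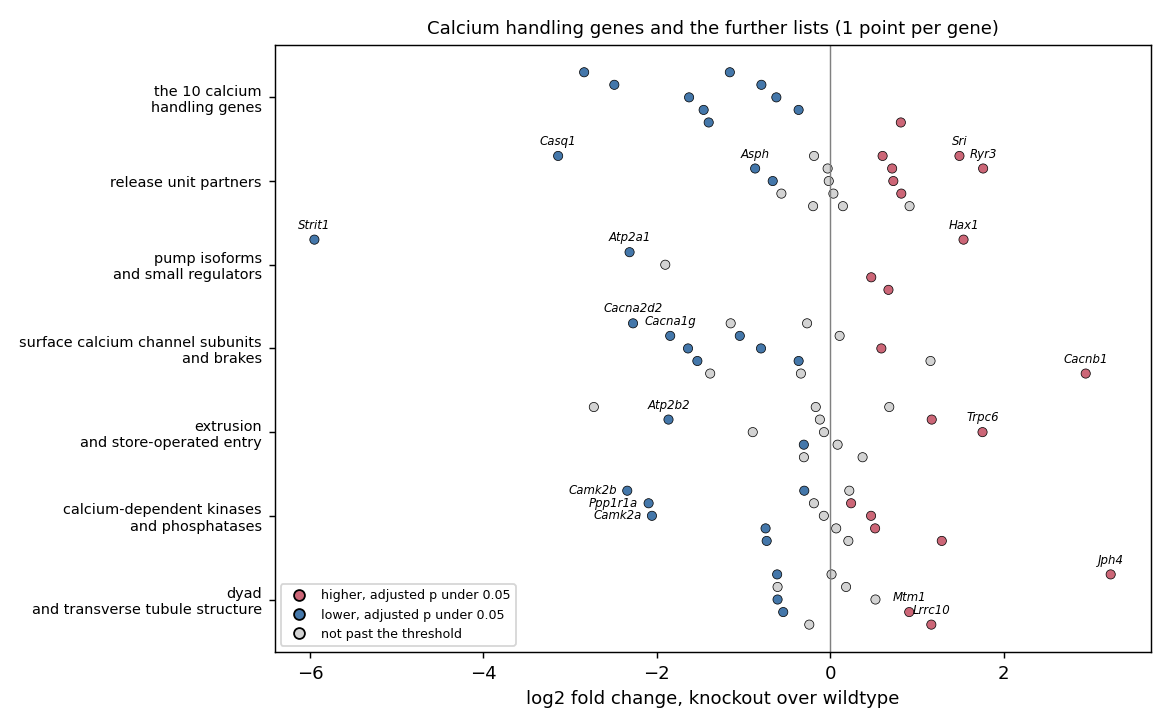
Log2 fold change, knockout over wildtype, of the 10 genes and of the genes of the 6 further lists that had an adjusted p and are reported here, 1 point per gene and 1 row of points per list. Red and blue mark higher and lower at an adjusted p under 0.05, grey the rest. The 10 genes lie mostly left of 0, and Strit1 at -5.95 is the point farthest out.

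Within the groups, the libraries of the 10 genes varied together in part. After removal of the group means, the highest Pearson r over the 8 libraries was 0.97, for Pln with Casq2. The lowest was -0.94, for Sln with Casq2. Without knockout replicate 3 these were 0.19 and 0.03, so both rested on that library. Other pairs did not, such as Jph2 with Hrc (0.82, and 0.81 without it) and Slc8a1 with Hrc (-0.68 and -0.93). For Atp2a2 the genes of highest r were, among the 10446 records whose mean normalised count was 100 or more, Stard7 (0.99), Tti2 (0.98) and D10Jhu81e (0.98). For Ryr2 they were Pdlim3 (0.99), Pik3r1 (0.99) and P4hb (0.98), and for Sln they were Adcy7 (0.99), Igf1 (0.99) and Pld4 (0.99). Without knockout replicate 3 these values were 0.96 to 0.97 for Atp2a2, 0.97 to 0.99 for Ryr2 and 0.85 to 0.90 for Sln. They describe 8 libraries sequenced in 1 experiment and carry no test.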

How the data were processed

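Total RNA of whole hearts was sequenced from 4 wildtype and 4 knockout mice, grouped by their titles. Per the labels, the authors made the deposited expected counts with RSEM 1.2.31 and bowtie2 on mm10, with GENCODE transcripts and their own mitochondrial sequences, as reverse-stranded pairs after depletion of cytoplasmic rRNA. Expected counts of genes that share reads are estimates and need not be whole, though those of the 10 genes were whole in all libraries. The deposited TPM values and the deposited gene and effective lengths, other values in bases, come from the same runs. The authors' table of log2 fold changes and p-values was not used, nor was a table with 8 columns whose names match no sample.

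Expected counts were rounded and fitted over all records with DESeq2 1.42.0 in R 4.3.3 (genotype only, median-of-ratios size factors, effective lengths as offset, Benjamini-Hochberg at 0.05), which follows the study's tximport and DESeq2 1.16.1 route. Effective lengths were used in the offset and as an alternative measure in the comparison of lengths. Ratios and lengths were compared by exact permutation tests over 70 assignments (SciPy 1.17.1), two-sided, adjusted over 7 ratios or 10 genes. Symbols and coordinates on GRCm38 are those of GENCODE M21. Replicates were separate mice, and no 2 agreed within sampling noise (chi-square per degree of freedom 4.40 to 48.3). Depth was 35218541 to 47743376 expected counts.

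The 10 genes, the lists and the tests were chosen with earlier results of these data known. Named genes were the 10, the 3 largest called changes of each further list, Atp2a1, Casq1, Ryr1, Strit1, Mrln, Asph and Fkbp1b, and the 3 genes most like Atp2a2, Ryr2 and Sln. Some genes of the lists are counted but not reported here by name. Marker lists covered cardiomyocytes, atrial cardiomyocytes, skeletal muscle, smooth muscle, fibroblasts, endothelial cells and macrophages. Of their genes, 3 of 5 smooth muscle markers were lower, 3 of 6 fibroblast and 3 of 5 macrophage markers were higher, and 0 of 5 endothelial markers were called. Alternatives were edgeR 4.0.16, no length offset, a replicate block, scaling to total counts, once including and once excluding mitochondrial rRNA, nuclear size factors, a minimum of 10 counts in 4 libraries, other ratios and lengths, and leaving out each library. The fits were tested on simulated counts, where unchanged genes made up more than the nominal share of the calls, by DESeq2 more than by edgeR. Calls near the threshold are thus less certain than their adjusted p. The simulated spread was that of the wildtype libraries alone. Knockout libraries were more spread for genes such as Ryr2, Pln and Slc8a1, and less for Cacna1c. The simulated share of false calls therefore need not hold for these data.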

Additional observations from a re-analysis of the deposited data

Results flagged for a closer look

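Libraries far from the other 3 of their group were found in 11 of 94 groups of 4 by Dixon's test, where chance gives about 4.7. In knockout replicate 3, Pln had 37044 normalised counts (others 20590 to 22642), Casq2 had 14782 (others 10266 to 10568), Sri had 1959 (others 911 to 1027) and Mtm1 had 1042 (others 606 to 657). In the same library the log2 ratio of Sln to Pln was -9.31 (others -6.86 to -6.58) and the weighted length of Pln was 1396 bases (others 1565 to 1590). Without that library the log2 fold changes of Pln, Casq2, Sri and Mtm1 were -1.70, -0.51, 1.16 and 0.69.

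In knockout replicate 1, Jph2 had 5372 normalised counts (others 3891 to 4121), Hrc had 3143 (others 1746 to 1972) and Asph had 3233 (others 2383 to 2515), all toward the wildtype. The log2 ratio of Slc8a1 to Atp2a2 was -2.30 in that library (others -1.57 to -1.43), also toward the wildtype, and -4.20 in wildtype replicate 4 (others -4.09 to -4.08). Without knockout replicate 1 the log2 fold changes of Jph2, Hrc and Asph were -0.74, -2.71 and -0.98.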

How the results depend on the processing

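Every call on the 10 genes kept its direction with edgeR, no length offset, the low-count filter, nuclear size factors, total-count scaling and the replicate block, and none was lost. Under the replicate block 9 of the 10 genes were lower and 1 higher, with 18 pathway genes higher and 22 lower against 20 and 24, and the block changed no call of a gene named by the rule from these lists. Same-numbered libraries had correlations of -0.03, -0.05, -0.01 and 0.09 of their deviations. A pairing of the animals by number was thus not detected, and these values cannot exclude one. Over the whole table the block gave 2929 higher and 2596 lower records, against 3628 and 3100.

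With total-count scaling 1924 records were higher and 5912 lower (24.6% higher, median shift -0.30 in log2), and with mitochondrial rRNA left out 7950 and 1111 (87.7% higher, shift 0.43), against 53.9% higher. Pathway genes were 37 lower under the first, and 35 higher and 14 lower under the second. Leaving mitochondrial rRNA out turned Casq2 to 0.0501 and lost Jph2 (-0.20). Relative to the cardiomyocyte markers Casq2 was 0.18, and Cacna1c and Jph2 were not called. Relative to the median of records whose mean normalised count was 10 or more, Casq2 was -0.38 to -0.39 under the 3 scalings. On expected counts Pln to Atp2a2 was -0.055 and Trdn to Ryr2 0.79. The difference in length of Jph2 was -1.03 bases on effective lengths against 0.03.

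Leaving out 1 library gave 8 to 9 of the 10 genes lower and 1 higher, and 18 to 20 pathway genes higher and 19 to 27 lower. Over the whole table it gave 3025 to 3722 higher and 2504 to 3300 lower records. Casq2 lost its call in 6 of these 8 fits, Atp2b2 lost it without wildtype replicate 2 (adjusted p = 0.0554), and Mrln gained one without knockout replicate 2 (adjusted p = 0.0455). Atp2b2 also lost its call, and Fkbp1b gained one, when mitochondrial rRNA was left out of the totals. For ratios and lengths, 3 against 4 libraries allow no p under 0.0571, so only values were compared, and the called ratios kept their direction. The cause of these changes was not tested.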
